A study of Mus musculus with 53 samples.

Results

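The 10 genes described here are cytokines of macrophages and the receptors that detect them: Tnf with its receptors Tnfrsf1a and Tnfrsf1b, Il10 with its receptor chain Il10ra, Il6 with its receptor chain Il6ra, and the cytokine genes Il12b, Il15 and Osm. They were chosen by gene symbol, and each symbol matched 1 of the 23847 loci in the expression tables. Bone marrow cells of mice aged 8 to 12 weeks on a C57BL/6 background were grown for 6 days with L929 supernatant, a source of macrophage colony-stimulating factor, to give bone marrow-derived macrophages (BMDMs). The mice were WT or Stat6-/-, the latter a knockout in the whole body and not in macrophages alone. IL-4 at 20 ng/ml was given for 1, 3, 6 or 24 h, each time with a control of the same time without IL-4, and a control at 0 h was also taken. The 53 libraries of polyadenylated RNA fell into 18 groups, with 4 libraries per WT group, 3 in WT with 24 h of IL-4 (replicate 1 is not analysed here) and 2 per Stat6-/- group.

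IL-4 is the cytokine of type 2 immunity. Its receptor activates the transcription factor STAT6 and drives macrophages towards alternative polarization, a state tied to tissue repair and defence against worms. TNF is the prototypic inflammatory cytokine of macrophages and signals through TNFR1 (Tnfrsf1a), which most cells carry, and TNFR2 (Tnfrsf1b), which is mainly on immune and endothelial cells. IL-10 is the main deactivating cytokine of macrophages and acts on the producing cells themselves through IL-10RA. IL-6, oncostatin M (Osm), IL-12 (its p40 chain is Il12b) and IL-15 carry macrophage signals to liver, stromal, T and NK cells, and Il6ra encodes the chain that binds IL-6.

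Levels are given in FPKM, which divides the fragments of a gene by transcript length and by the mapped total of the library, so they can be compared between genes per length. In WT at 0 h (n = 4, mean ± SD) the order was Tnfrsf1b at 129 ± 16.04, Il10ra at 92.3 ± 9.39, Tnfrsf1a at 91.0 ± 4.40, Il6ra at 26.9 ± 1.88, Il15 at 25.0 ± 2.85, Tnf at 20.8 ± 1.72, Il10 at 7.53 ± 0.577 and Osm at 3.04 ± 0.204 FPKM. Il12b (0.0389 ± 0.0365) and Il6 (0.00640 ± 0.0128) were close to 0. Neighbours in this order whose ranges overlapped were Il10ra with Tnfrsf1a, Il6ra with Il15, Il15 with Tnf, and Il12b with Il6. Receptor mRNA thus stood above cytokine mRNA for both TNF and IL-10.

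Stat6 served as the check of the genotype labels: it was at 58.7 to 90.6 FPKM in the 35 WT libraries and at 14.3 to 24.0 FPKM in the 18 Stat6-/- libraries. The macrophage markers Csf1r (610 to 1081 FPKM) and Cd68 (780 to 1678 FPKM) were high in every library. Among the other listed macrophage markers, Emr1 was at 468.4 to 1840 FPKM and Itgam at 155.7 to 599.9 FPKM. Mertk was lower, at 4.598 to 28.44 FPKM, and Fcgr1 ranged from 15.99 to 553 FPKM. T cell markers summed to at most 0.361 FPKM with medians of 0 for Cd3e, Cd3g and Cd3d. The neutrophil markers S100a8 (80.7 to 478 FPKM) and S100a9 (103 to 437 FPKM), which monocytic cells also express, were present. So were Elane (2.405 to 13.4 FPKM) and Mpo (3.80 to 16.1 FPKM) of the same list. Relative depth ranged from 0.707 to 1.55 times the median library, and the absolute depth is unknown. The 2 Stat6-/- replicate numbers stood apart at several of these genes. In the 9 groups, libraries numbered 1 held 156 to 217 FPKM of Tnfrsf1b and those numbered 2 held 88.8 to 136 FPKM. Il10 (4.56 to 10.9 in number 1, 10.1 to 14.4 FPKM in number 2), Il10ra and Il12b were higher in number 2 in all 9 groups. For some results on Stat6-/- that move with the number, effect sizes without 1 of the numbers are given too. Such fits leave 1 library per Stat6-/- group, so no p-value is given for them.

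RefSeq promoter windows (GRCm38.p6, the same sequence as mm10), reaching from 250 bases before to 50 bases after a transcription start, were held for 6 of the 10 genes. They were searched on both strands for 7 motifs: the STAT palindrome TTCNNNGAA (in 8.3% of 32841 windows of the same length), the wider STAT6 form TTCNNNNGAA (6.95%), the AP-1 site TGANTCA (7.81%), the CRE half-site TGACG (20.8%), the PU.1-type GAGGAAG (13.6%), TATAAA (13.6%) and the NF-kB consensus (8.46%). The windows below are those of Tnf, which fell most at 1 h, of Il6ra, which was called at 24 h alone, of Tnfrsf1b, which holds a STAT palindrome, and of Il6, which stayed near 0. Capitals mark every motif match, and no matches overlapped.
Tnf, chr17:35201958-35202257, minus strand: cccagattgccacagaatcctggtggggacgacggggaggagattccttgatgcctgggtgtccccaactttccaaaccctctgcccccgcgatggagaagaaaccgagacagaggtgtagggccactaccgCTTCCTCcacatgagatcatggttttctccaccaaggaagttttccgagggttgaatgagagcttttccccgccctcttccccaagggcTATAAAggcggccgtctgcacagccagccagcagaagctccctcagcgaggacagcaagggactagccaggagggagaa
Il6ra, chr3:89913147-89913446, minus strand: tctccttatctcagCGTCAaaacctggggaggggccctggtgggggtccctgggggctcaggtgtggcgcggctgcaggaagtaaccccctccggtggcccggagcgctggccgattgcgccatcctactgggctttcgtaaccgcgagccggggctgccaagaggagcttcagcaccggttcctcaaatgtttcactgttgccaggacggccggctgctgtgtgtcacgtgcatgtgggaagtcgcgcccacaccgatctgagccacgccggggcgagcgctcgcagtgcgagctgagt
Tnfrsf1b, chr4:145246821-145247120, minus strand: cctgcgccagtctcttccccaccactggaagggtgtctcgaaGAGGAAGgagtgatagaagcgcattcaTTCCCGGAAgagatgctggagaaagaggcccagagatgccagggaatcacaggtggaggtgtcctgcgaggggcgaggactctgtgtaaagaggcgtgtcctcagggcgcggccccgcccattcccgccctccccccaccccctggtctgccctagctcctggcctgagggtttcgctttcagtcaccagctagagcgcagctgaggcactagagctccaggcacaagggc
Il6, chr5:30012864-30013163, plus strand: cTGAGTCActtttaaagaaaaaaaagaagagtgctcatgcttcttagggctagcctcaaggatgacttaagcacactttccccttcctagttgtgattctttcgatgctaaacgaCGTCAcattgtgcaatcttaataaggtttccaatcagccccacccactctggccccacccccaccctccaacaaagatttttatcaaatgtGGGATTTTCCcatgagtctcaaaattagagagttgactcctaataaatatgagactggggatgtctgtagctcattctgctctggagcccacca
The Tnf window held TATAAA from -29 to -24 and the PU.1-type letters from -118 to -112, counted from the start base as 0. It held neither STAT form. The STAT palindrome was found in both TNF receptor windows, as ttcccggaa at -181 in Tnfrsf1b and as ttccgtgaa at -244 in Tnfrsf1a. Il6 held AP-1, CRE and NF-kB matches, Il6ra a CRE half-site alone, and the Il12b window none of the 7. These matches describe letters and not occupied sites.

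IL-4 was compared with the control of the same time in WT to ask which of these genes it changed and when. Tests ran over the 11146 loci that reached 1 FPKM in at least 1 library, in limma on log2(FPKM + 1), and a gene was called at a Benjamini-Hochberg adjusted p under 0.05. Log2 values below are on that scale, which understates changes of low genes. Of the 10 genes 9 were tested, because Il6 never reached 1 FPKM. Il12b entered through 1 library alone, Stat6-/- 24 h control replicate 2 at 1.07 FPKM. At 1 h 2 of the 9 were called, both lower (Tnf and Osm), while 9.39% of all loci were called, 5.67% higher and 3.72% lower. At 3 h 4 were called, Il10 higher and Tnf, Il15 and Il10ra lower, against 28.9% of all loci (16.4% higher, 12.5% lower). At 6 h it was 6, with Il10 and Osm higher and Tnf, Tnfrsf1a, Il15 and Il10ra lower, against 41.2% (22% higher, 19.2% lower). At 24 h it was 7, with Tnf higher and Osm, Il10, Il6ra, Tnfrsf1a, Il15 and Il10ra lower, against 55% (23.4% higher, 31.6% lower). Of these, genes called and lowered at least 2-fold were Tnf at 1 h and at 3 h, none at 6 h, and Osm, Il6ra, Il15 and Il10ra at 24 h. The same rule took 0.395%, 1.27%, 2.36% and 4.58% of all loci at 1, 3, 6 and 24 h. In bulk RNA, fewer expressing cells and less mRNA per cell cannot be told apart. Same-group libraries are separate samples by their labels. The p-values use the spread of a gene within groups, estimated over all 53 libraries and so over the Stat6-/- groups too. The counts at 3 h and 6 h do not use the pairing by replicate number described below.

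Tnf (chromosome 17, 35199391 to 35201996, mm10, minus strand) fell most of the 9 at 1 h and then reversed. At 1 h the WT controls held 21.3, 20.4, 18.7 and 20.4 FPKM and the IL-4 libraries 4.29, 4.49, 3.86 and 3.32 FPKM. All 4 treated libraries lay far below all controls, and the mean was 5.06-fold lower (log2 change -2.09, SE 0.13, limma adjusted p 5.02e-16). At 3 h controls of 20.1, 18.9, 18.9 and 21.3 stood against 7.42, 6.61, 6.17 and 6.87 FPKM, a 2.92-fold lower mean (log2 -1.42, SE 0.13, adjusted p 1.06e-11). By 6 h most of the gap had closed: controls were at 17.6, 19.1, 19.4 and 19.2 and IL-4 libraries at 12.5, 16.4, 13.2 and 12.8 FPKM (log2 -0.44, SE 0.13, adjusted p 0.00570). At 24 h the order turned, with IL-4 at 20.0, 16.2 and 18.9 above controls at 14.3, 13.7, 14.4 and 14.7 FPKM. This rise of 28.7% (log2 0.34, SE 0.14, adjusted p 0.0386) was small, and it was no longer called without any single one of 5 of the 7 libraries (WT 24 h IL-4 replicates 2 and 4, control replicates 1, 2 and 3, adjusted p 0.0560 to 0.147), nor with no filter on low values (adjusted p 0.0583), though the groups did not overlap. The controls themselves fell, from 18.7 to 22.9 FPKM at 0 h to 13.7 to 14.7 FPKM at 24 h (log2 -0.51, SE 0.13, limma adjusted p 0.0050). The IL-4 libraries at 24 h overlapped the 0 h controls, with means of 18.4 and 20.8 FPKM, so Tnf did not stand above its 0 h level. The change of the response between 1 h and 24 h, a test added after the values were seen, was 2.43 (SE 0.19, limma adjusted p 5.16e-13). That test called 6 of the 9 genes and 44.5% of all loci.

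In Stat6-/- BMDMs Tnf did not fall. At 1 h the controls held 15.8 and 21.7 and the IL-4 libraries 19.6 and 24.9 FPKM, and at 3 h 17.1 and 20.3 stood against 20.2 and 25.6 FPKM. The log2 changes were 0.24 (95% interval -0.13 to 0.61) at 1 h and 0.27 (-0.10 to 0.64) at 3 h. The responses differed between genotypes, Stat6-/- minus WT, by 2.33 (SE 0.22, limma adjusted p 6.60e-10) at 1 h and by 1.69 (SE 0.22, adjusted p 2.85e-07) at 3 h. The difference of 0.49 at 6 h (0.04 to 0.95, adjusted p 0.137) and of -0.05 at 24 h (-0.52 to 0.41, adjusted p 0.889) did not pass. Over the alternatives the 6 h difference was 0.30 to 0.69, and without every Stat6-/- library numbered 2 it was 0.53.

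Il10 (chromosome 1, 131019845 to 131024970, plus strand) had the opposite sign to Tnf at every time. At 1 h WT controls of 6.48, 6.13, 5.71 and 6.55 FPKM stood against 9.84, 10.5, 9.71 and 8.52 FPKM with IL-4. The groups did not overlap, but the log2 change of 0.56 (95% interval 0.13 to 0.99) missed the threshold in the fit over all groups (adjusted p 0.103). It passed when the fit held only these 8 libraries (adjusted p 0.000933), which leaves out all other WT groups and the Stat6-/- groups. At 3 h Il10 was at 6.00, 6.31, 6.73 and 6.85 FPKM in controls and at 12.6, 13.4, 12.1 and 12.8 FPKM with IL-4, a 1.97-fold rise (log2 0.88, SE 0.21, adjusted p 0.00121). The rise at 6 h, from 6.40, 7.07, 6.62 and 6.48 to 12.1, 12.0, 12.3 and 9.90 FPKM, was 1.74-fold (log2 0.71, SE 0.21, adjusted p 0.00639). At 24 h Il10 had dropped below the controls, at 5.30, 3.92 and 3.18 against 6.18, 9.02, 7.91 and 6.18 FPKM (log2 -0.70, SE 0.23, adjusted p 0.00961). Without WT 24 h IL-4 replicate 4 this fall was -0.56 with an adjusted p of 0.0699. The response changed by -1.26 between 1 h and 24 h (SE 0.31, adjusted p 0.00127).

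In Stat6-/- the level of Il10 differed more between replicate numbers than with IL-4. At 3 h the controls held 7.66 and 11.5 and the IL-4 libraries 7.49 and 14.2 FPKM, a log2 change of 0.12 (95% interval -0.49 to 0.73). The difference between genotypes missed the threshold at every time: -0.37 (-1.12 to 0.38, adjusted p 0.925) at 1 h, -0.76 (-1.50 to -0.01, adjusted p 0.235) at 3 h, -0.70 (-1.45 to 0.04, adjusted p 0.219) at 6 h and 0.84 (0.08 to 1.61, adjusted p 0.0932) at 24 h. With the replicate number as a block, limma called it at 3 h (adjusted p 0.00128), 6 h (adjusted p 0.00206) and 24 h (0.86, adjusted p 0.000226). Only 3 h and 6 h were taken as paired. Without every Stat6-/- library numbered 1 the difference was -0.73 at 6 h and 0.94 at 24 h. Without those numbered 2 it was -0.91 at 3 h, -0.68 at 6 h and 0.75 at 24 h. These fits leave 1 library per Stat6-/- group, so only effect sizes are given. The genotype difference of the Il10 response thus passed at 3, 6 and 24 h with the block, and at no time in the fit of all libraries without it. Its sign at 3, 6 and 24 h was the same in every alternative, but its size varied. It ranged from -1.18 to -0.34 at 3 h, from -0.98 to -0.43 at 6 h and from 0.25 to 1.44 at 24 h.

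**Figure D1:**
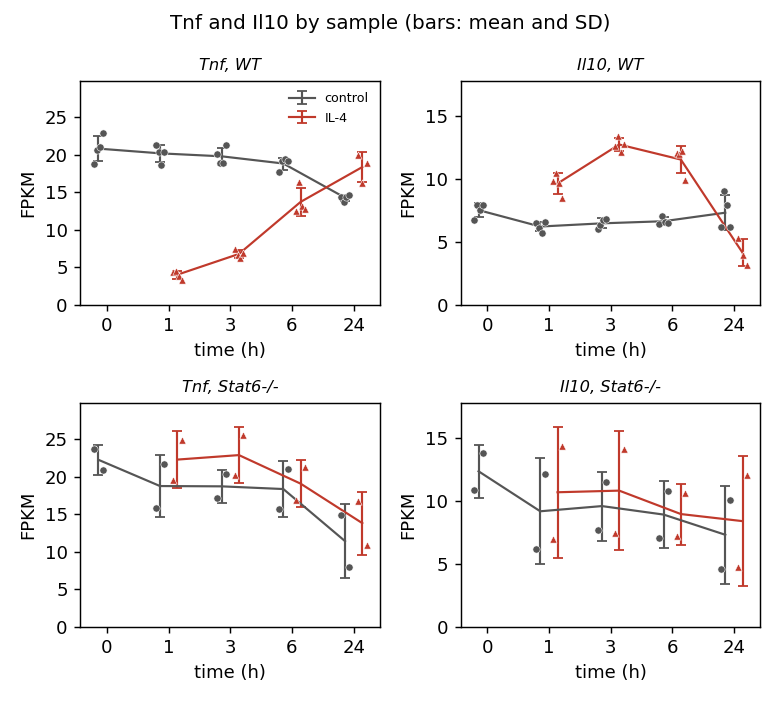
Tnf (left) and Il10 (right) in FPKM by time in h, WT above and Stat6-/- below, with control libraries as grey circles, IL-4 libraries as red triangles, and lines through group means with SD bars. In WT, Tnf with IL-4 rises from 3.32 to 4.49 FPKM at 1 h to 16.2 to 20.0 FPKM at 24 h, while Il10 peaks at 12.1 to 13.4 FPKM at 3 h.

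The TNF receptors moved little beside their ligand. Tnfrsf1a (chromosome 6, 125349723 to 125362483, plus strand) lay between 82.0 and 110 FPKM in all 35 WT libraries. At 6 h controls of 97.9, 108, 101 and 103 FPKM stood just above 86.3, 87.8, 94.1 and 94.4 FPKM with IL-4, a fall of 0.18 on the log2 scale (SE 0.07, adjusted p 0.0284). The change at 24 h was also -0.17 (SE 0.07, adjusted p 0.0340), with overlapping groups (92.0 to 110 against 86.5 to 96.7 FPKM). Each of these calls rested on single libraries: without any one of 4 at 6 h or of 5 at 24 h the adjusted p was 0.0508 to 0.159. At 1 h and 3 h its changes were -0.03 (95% interval -0.16 to 0.10) and -0.04 (-0.17 to 0.09). Tnfrsf1b (chromosome 4, 145212368 to 145246870, minus strand) was not called at any time. Its WT means with IL-4 were 115, 108.5, 145 and 202 FPKM at 1, 3, 6 and 24 h, against 133, 129, 132 and 168 FPKM in controls. The intervals were wide, from -0.69 to 0.18 at 3 h and from -0.19 to 0.75 at 24 h, and the Stat6-/- numbers, which enter the shared estimate of spread, differ at this gene. In the blocked fit the change of -0.26 at 3 h was called (limma adjusted p 0.00102). The lower values of IL-4 libraries at 3 h, 118, 88.1, 112 and 116 against 134, 114, 128 and 141 FPKM, held within each of the 4 replicate numbers. The other sign held as evenly at 6 h, with 138, 122, 150 and 171 FPKM against 127, 109, 142 and 150 FPKM in controls of the same number, where the blocked change of 0.14 was not called (adjusted p 0.0651). At 24 h all 3 IL-4 libraries were again above the control of their number, 192, 199 and 216 against 131, 171 and 198 FPKM, and the blocked change was 0.29 (adjusted p 0.000397).

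Il10ra (chromosome 9, 45253839 to 45269146, minus strand), the ligand-binding chain of the IL-10 receptor, was lower with IL-4 in WT while its ligand was higher, and it was lowest at 24 h, when Il10 too had fallen. At 1 h it was at 87.6, 77.3, 90.6 and 86.5 FPKM in controls and at 66.8, 63.2, 73.0 and 62.7 FPKM with IL-4, with no overlap and an adjusted p of 0.0566 (log2 -0.36, 95% interval -0.61 to -0.11). The changes at 3 h (log2 -0.39, adjusted p 0.0134) and 6 h (log2 -0.60, adjusted p 0.000105) were called, the first not without WT 3 h IL-4 replicate 2 (-0.33, adjusted p 0.0631). At 24 h controls of 106, 91.4, 102 and 88.4 FPKM stood against 31.9, 30.6 and 32.3 FPKM, 3.07-fold lower (log2 -1.58, SE 0.13, adjusted p 1.10e-12). The treated libraries lay close together and far from every control. In Stat6-/- at 24 h the 2 controls held 83.4 and 148 and the 2 IL-4 libraries 84.8 and 145 FPKM, so each number kept its own level. The difference between genotypes was 1.58 at 24 h (SE 0.22, limma adjusted p 6.76e-07). At 6 h it was 0.44 (0.02 to 0.87, adjusted p 0.164), and with the replicate block it was called (adjusted p 0.0165).

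Il6ra (chromosome 3, 89869324 to 89913162, minus strand) showed no call before 24 h. Its log2 changes were 0.02 (95% interval -0.26 to 0.30) at 1 h, -0.16 (-0.44 to 0.12) at 3 h and -0.07 (-0.34 to 0.21) at 6 h. At 24 h it was at 27.7, 25.6, 22.7 and 26.7 FPKM in WT controls and at 10.5, 8.74 and 9.68 FPKM with IL-4. These 3 libraries were the lowest of all 53, and the mean was 2.66-fold lower (log2 -1.33, SE 0.15, adjusted p 1.28e-09). In Stat6-/- controls of 21.5 and 45.9 stood beside 22.8 and 45.0 FPKM with IL-4. The genotype difference was 1.35 (SE 0.24, adjusted p 5.17e-05), with an adjusted p of 0.0637 when only the 4 groups of this time were fitted.

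Il15 (chromosome 8, 82331624 to 82402586, minus strand), which encodes the cytokine that maintains NK cells and memory T cells, fell step by step. The 1 h change was -0.06 (95% interval -0.28 to 0.16). At 3 h controls of 25.6, 24.5, 29.1 and 30.1 stood above 19.5, 20.6, 19.6 and 22.1 FPKM (log2 -0.40, SE 0.11, adjusted p 0.00427), and at 6 h 22.6, 22.3, 27.6 and 26.0 stood above 17.9, 15.3, 16.2 and 20.8 FPKM (log2 -0.47, SE 0.11, adjusted p 0.000549). The fall at 24 h, from 30.6, 31.2, 32.8 and 32.3 to 7.81, 8.98 and 10.4 FPKM, was 3.50-fold (log2 -1.71, SE 0.12, adjusted p 5.80e-15). The WT controls at 0 h, at 20.95 to 27.64 FPKM, lay between these groups. Il15 responses in Stat6-/- were of the other sign, 0.32 (0.01 to 0.63) at 3 h and 0.28 (-0.03 to 0.59) at 6 h, and none was called. Differences between genotypes were called at 3 h (0.72, SE 0.19, adjusted p 0.00748), 6 h (0.75, SE 0.19, adjusted p 0.00374) and 24 h (1.79, SE 0.19, adjusted p 4.91e-09). The 3 h difference leaned on Stat6-/- 3 h IL-4 replicate 2, at 43.4 FPKM beside 26.5 FPKM in replicate 1. Without it the difference was 0.37, without Stat6-/- 3 h control replicate 1 it was 0.66, and without every Stat6-/- library numbered 2 it was 0.43. These fits leave 1 library in a Stat6-/- group, so only effect sizes are given. In the fit of only the groups compared the 3 h difference was not called (limma adjusted p 0.0758).

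Osm (chromosome 11, 4236785 to 4241026, plus strand), an IL-6 family cytokine, changed direction with time. It was lower at 1 h, at 2.68, 3.02, 2.94 and 3.09 against 4.20, 4.41, 4.39 and 4.12 FPKM (log2 -0.43, SE 0.11, adjusted p 0.00873). At 3 h the groups overlapped (log2 -0.00, 95% interval -0.23 to 0.23). At 6 h IL-4 libraries were higher, at 5.24, 5.56, 6.99 and 5.04 against 3.49, 4.15, 4.69 and 4.02 FPKM (log2 0.39, SE 0.11, adjusted p 0.00460), and at 24 h they were 3.50-fold lower, at 1.49, 1.45 and 1.76 against 5.98, 4.84, 6.02 and 5.10 FPKM (log2 -1.33, SE 0.12, adjusted p 1.27e-11). The 1 h values with IL-4 overlapped those of the 0 h controls (2.74, 3.12, 3.11 and 3.20 FPKM), whereas the 1 h controls lay above both. At 24 h the IL-4 libraries lay below all 0 h controls and the 24 h controls lay above all of them. In Stat6-/- the change of 0.43 at 3 h (0.11 to 0.76) was the largest and was not called (adjusted p 1). The difference between genotypes passed at 24 h (1.39, SE 0.20, adjusted p 1.66e-06). At 3 h it was 0.44 and was not called (limma adjusted p 0.183), with 0.13 to 0.74 over the alternatives. The value was 0.72 without all libraries numbered 1 and 0.74 without Stat6-/- 3 h IL-4 replicate 1. Both of these fits leave 1 library in a Stat6-/- group.

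**Figure D2:**
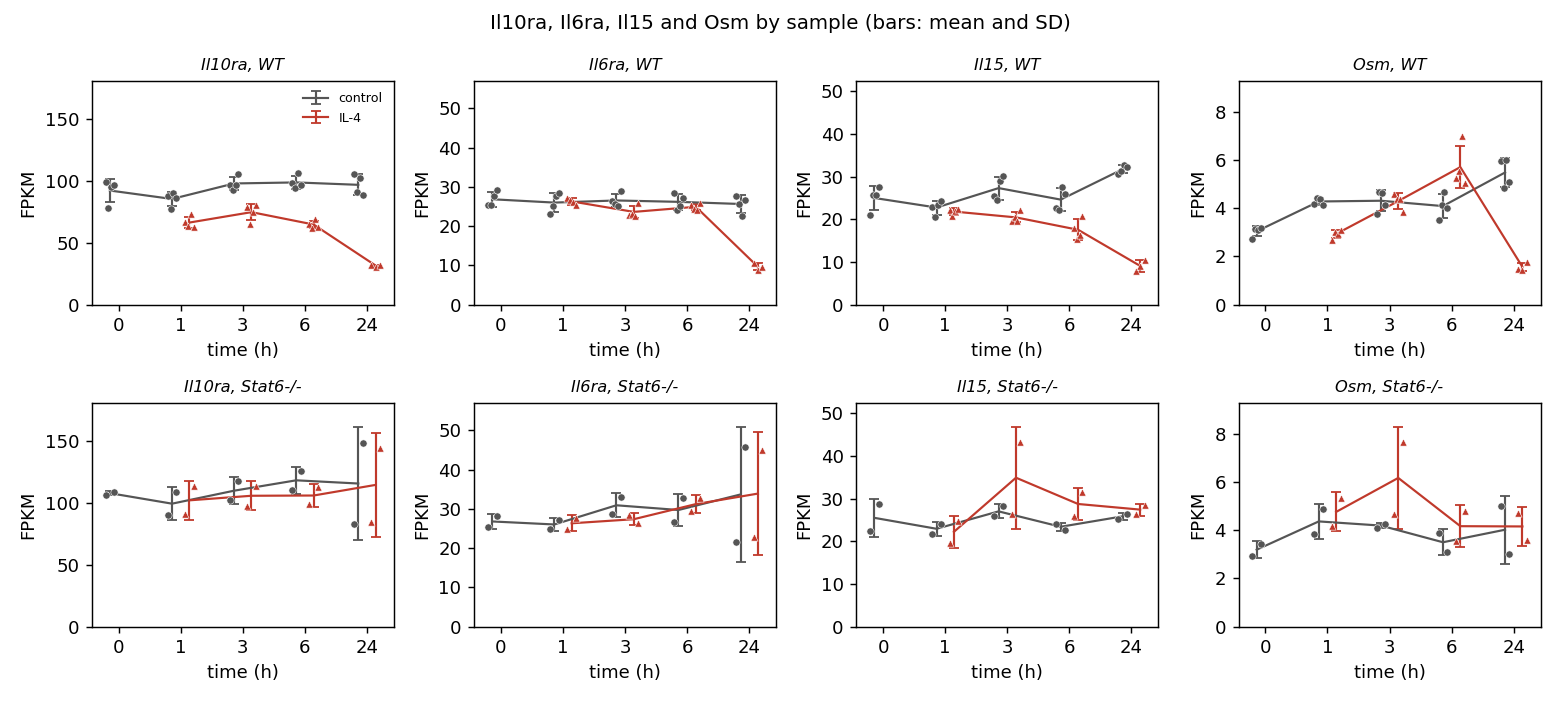
Il10ra, Il6ra, Il15 and Osm in FPKM by time in h, WT above and Stat6-/- below, with controls as grey circles, IL-4 libraries as red triangles, and lines through group means with SD bars. In WT at 24 h the 3 IL-4 libraries lie below all 4 controls for each gene, and in Stat6-/- the 2 libraries of a group lie far apart at 24 h for Il10ra and Il6ra.

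Il12b (chromosome 11, 44400063 to 44414017, plus strand) and Il6 (chromosome 5, 30013161 to 30019968, plus strand) were near the floor of the tables. Il12b was at most 0.488 FPKM in WT and listed at 0 in 4 of the 35 WT libraries. At 24 h its WT controls were at 0.488, 0.280, 0.137 and 0.0817 FPKM, and the IL-4 libraries at 0.0644 and, for the other two, 0. The groups did not overlap, and the log2 change of -0.28 (95% interval -0.53 to -0.02, adjusted p 0.0608) missed the threshold. A pseudocount of 0.1 in place of 1 moved it to -1.41 (limma adjusted p 0.0100). Without WT 24 h control replicate 3 or 4, the lowest of the controls, it was called as well (-0.32, adjusted p 0.0483, and -0.34, adjusted p 0.0302). In 8 of 12 alternative fits it was not called, with changes as small as -0.19 and limma adjusted p up to 0.232. Il6 peaked at 0.169 FPKM and was listed at 0 in 16 of the 53 libraries. In WT at 1 h it was at 0.0949, 0.0260, 0.169 and 0.0649 FPKM with IL-4, while 3 controls were listed at 0 and the other held 0.0368 FPKM. With no filter on low values this difference was called (0.11, SE 0.03, limma adjusted p 0.00985), at levels of at most 0.169 FPKM.

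**Figure D3:**
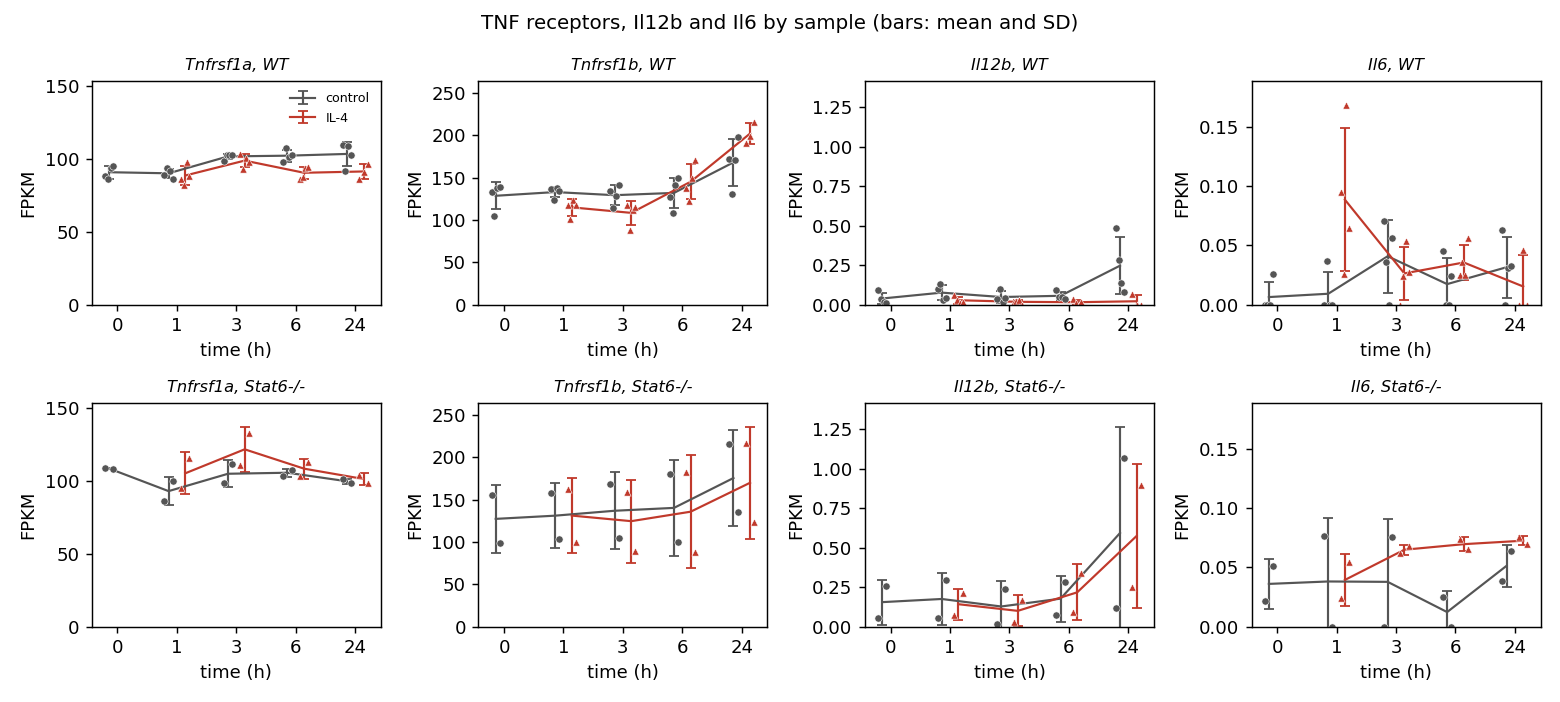
Tnfrsf1a, Tnfrsf1b, Il12b and Il6 in FPKM by time in h, WT above and Stat6-/- below, with controls as grey circles, IL-4 libraries as red triangles, lines through group means, and SD bars cut at 0. Tnfrsf1a stays between 82.0 and 133 FPKM in every library, the pairs of Tnfrsf1b points in Stat6-/- lie apart by number, and Il6 stays at or below 0.169 FPKM.

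Taking the genotypes as a whole, none of the 9 tested genes was called in Stat6-/- at 1, 3, 6 or 24 h, and neither was any other locus (0% at each time by limma at an adjusted p under 0.05). At an unadjusted p under 0.05 it was 51, 131, 88 and 37 loci, and the blocked fit called 2, 4, 4 and 1, with none of the 9 among them. With no filter on low values 1, 4, 4 and 11 of 18793 loci were called, again none of the 9. With 2 libraries per group the intervals of single genes remained wide, as those of Il10 show. The test of the difference between genotypes called 1 of the 9 at 1 h (3.36% of all loci), 2 at 3 h (11.2%), 1 at 6 h (16.5%) and 4 at 24 h (27%). At 6 h the blocked fit called 3 (30.2% of all loci), namely Il15, Il10 and Il10ra. The 4 genes called at 24 h were those lowered at least 2-fold by 24 h of IL-4 in WT. That WT fall is part of the difference itself, so the overlap is no separate evidence. The macrophage markers also moved at that time: the 6 of 8 marker symbols that were listed summed to 2604 to 2626 FPKM in WT with 24 h of IL-4 and to 3274 to 3773 FPKM in its controls, with none at 0. The 4 neutrophil markers summed to 191.4 to 280 FPKM with IL-4 and to 396.3 to 535.5 FPKM in controls, and the 4 B cell markers, nearly all of it Cd79b, to 1.23 to 1.52 and 2.59 to 5.42 FPKM. The part of these markers in the 24 h results was not tested.

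**Figure D4:**
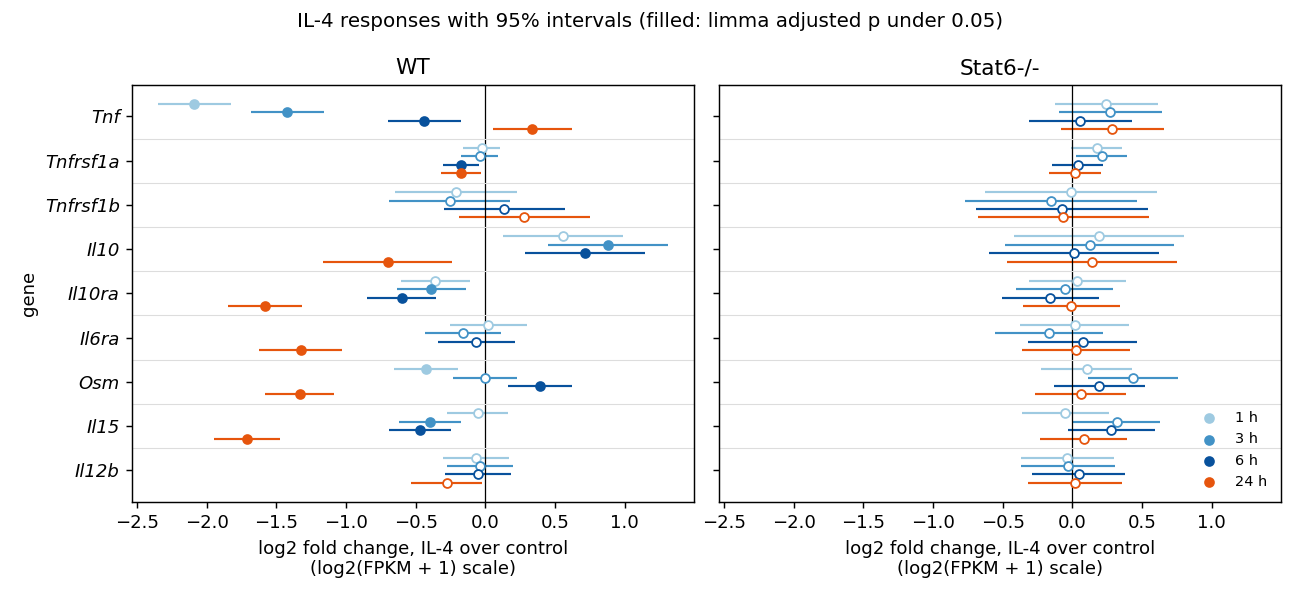
Log2 fold change of IL-4 over control for the 9 tested genes in WT (left) and Stat6-/- (right) on the log2(FPKM + 1) scale, with 95% intervals, coloured by time, and filled where limma's adjusted p was under 0.05. Tnf in WT moves from -2.09 at 1 h to 0.34 at 24 h, Il10ra, Il6ra, Osm and Il15 lie below -1.3 at 24 h, and no Stat6-/- point is filled.

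Controls were compared between genotypes over all 5 times, and this called 2 of the 9 genes (21.4% of all loci). Il10 was higher in Stat6-/- by 0.37 (SE 0.12, limma adjusted p 0.020) and Il10ra by 0.21 (SE 0.07, adjusted p 0.0196). Both rested on libraries numbered 2: without them the differences were 0.04 and 0.06. Tnfrsf1b took opposite signs, -0.34 without number 1 and 0.35 without number 2. Without number 1 the differences were 0.31 for Il6ra, 0.11 for Tnfrsf1a and -0.14 for Osm. With all libraries they were 0.14, 0.07 and -0.11, and none was called. Over the alternatives they ranged from -0.04 to 0.31 for Il6ra, from 0.03 to 0.11 for Tnfrsf1a and from -0.16 to -0.05 for Osm. Leaving out a number leaves 1 library per Stat6-/- group, so only effect sizes are given. The numbers recur at every time, and the fit treats libraries as independent. The p-values of this genotype comparison thus do not measure the spread between the 2 Stat6-/- numbers. Il12b reached 0.488 FPKM in WT controls and 1.07 FPKM in Stat6-/- controls, and since it was tested through the latter library alone no test is given. The 4 neutrophil markers summed to 259 to 535.5 FPKM in WT controls and to 496.2 to 933.5 FPKM in those of Stat6-/-, and the 3 mast cell and basophil markers to 0.269 to 0.890 and 0.930 to 2.10 FPKM. Their part in the genotype differences was not tested. Within WT, controls at 24 h differed from those at 0 h at 4 of the 9 genes (17.2% of all loci). Besides the fall of Tnf, Osm rose 1.80-fold (log2 0.68, SE 0.11, adjusted p 4.23e-05), Il15 rose by 27.1% (log2 0.34, SE 0.11, adjusted p 0.0269) and Tnfrsf1a by 13.8% (log2 0.18, SE 0.07, adjusted p 0.0470). The Il15 call was lost without 0 h replicate 1 or 24 h replicate 3 or 4 (adjusted p 0.0607 to 0.141), and that of Tnfrsf1a without any one of 6 libraries (adjusted p 0.0507 to 0.143).

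Genes around these cytokines were taken from 4 lists. Of 20 further members of the TNF ligand and receptor superfamily 16 were tested. In WT 6 were called at 1 h (4 higher, 2 lower), 7 at 3 h (2 and 5), 9 at 6 h (4 and 5) and 11 at 24 h (5 and 6), where 9.39%, 28.9%, 41.2% and 55% of all loci were called, and the list's median log2 change at 24 h was -0.36 beside -0.07 over all loci. Cd40, the costimulatory receptor for T cell help, went up at 6 h, with 10.8 ± 1.28 FPKM in controls and 78.6 ± 4.19 FPKM with IL-4 (mean ± SD, n = 4 in either group; log2 2.76, SE 0.30, adjusted p 6.59e-10). Tnfrsf12a, the receptor of TWEAK, was lower at 1 h (log2 -0.88, adjusted p 0.000227) and rose at 24 h from 3.36 ± 0.616 (n = 4) to 17.9 ± 1.32 FPKM (n = 3; log2 2.13, adjusted p 3.39e-12). Tnfsf14, the ligand LIGHT, was higher at 1 h (log2 1.05, adjusted p 0.0394) and fell at 24 h from 2.55 ± 0.535 to 0.313 ± 0.0497 FPKM (log2 -1.42, adjusted p 0.00119). Its 1 h call held in only 6 of 14 alternative fits (limma adjusted p up to 0.107). Differences between genotypes were called for Cd40 (-2.62, adjusted p 0.000226) and Tnfrsf12a (-1.96, adjusted p 5.68e-06), while that of Tnfsf14 was 1.52 (adjusted p 0.0555).

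All 20 genes listed for signalling below the TNF receptors were tested. In WT 6 were called at 1 h (5 higher, 1 lower), 7 at 3 h (4 and 3), 8 at 6 h (6 and 2) and 12 at 24 h (2 and 10), beside the same 9.39%, 28.9%, 41.2% and 55% of all loci, with a median log2 change of -0.22 at 24 h beside -0.07 over all loci. The TNF receptor-associated factor Traf5 rose at 24 h from 4.34 ± 0.589 to 20.4 ± 1.88 FPKM (log2 2.01, SE 0.12, adjusted p 1.35e-16), and Traf1 fell from 9.12 ± 2.35 to 2.90 ± 0.560 FPKM (log2 -1.35, SE 0.37, adjusted p 0.00227). Birc3, a ubiquitin ligase that limits TNF-induced cell death, fell from 38.1 ± 2.23 to 15.6 ± 1.97 FPKM (log2 -1.24, SE 0.14, adjusted p 2.33e-09).

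Of 22 partner subunits and kinases of the IL-6, oncostatin M, IL-10, IL-12 and IL-15 systems 17 were tested. In WT 1 was called at 1 h and 5 at 3 h, all higher, then 9 at 6 h (5 higher, 4 lower) and 11 at 24 h (2 and 9), against 9.39%, 28.9%, 41.2% and 55% of all loci, with a median log2 change of -0.45 at 24 h beside -0.07 over all loci. Ebi3, a chain shared by IL-27 and IL-35, fell at 24 h from 84.7 ± 13.5 to 23.1 ± 1.83 FPKM (log2 -1.82, SE 0.16, adjusted p 2.44e-12). Lifr, the receptor of leukaemia inhibitory factor, was higher at 3 h (log2 0.67, adjusted p 0.0211) and fell at 24 h from 4.21 ± 0.831 to 1.24 ± 0.0711 FPKM (log2 -1.20, SE 0.25, adjusted p 8.41e-05). Its 3 h call held in 11 of 14 alternative fits (limma adjusted p up to 0.0512). Jak2, the kinase of many cytokine receptors, rose at 6 h from 11.1 ± 1.30 to 39.9 ± 4.27 FPKM (log2 1.76, SE 0.10, adjusted p 4.33e-18).

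All 11 listed genes of cytokine mRNA decay, whose products bind or cut mRNAs such as that of Tnf, were tested. In WT 3 were called at 1 h (2 higher, 1 lower), 3 at 3 h (2 and 1), 5 at 6 h (4 and 1) and 6 at 24 h (2 and 4), while 9.39%, 28.9%, 41.2% and 55% of all loci were called, with a median log2 change of 0.08 at 1 h beside -0.02 over all loci. At 1 h, when Tnf was lowest, Zc3h12a (Regnase-1, an RNase) rose from 13.6 ± 1.80 to 41.4 ± 3.67 FPKM (log2 1.55, SE 0.09, adjusted p 1.01e-16). Zfp36l2, an AU-rich element binding protein, fell from 98.2 ± 11.5 to 22.7 ± 0.374 FPKM (log2 -2.06, SE 0.09, adjusted p 5.98e-21). Its relative Zfp36l1 rose at 3 h from 52.3 ± 3.97 to 135 ± 5.51 FPKM (log2 1.36, SE 0.19, adjusted p 3.15e-07) and was lower at 24 h (log2 -0.84, adjusted p 0.000824). All 3 differed between genotypes (-1.42, 1.91 and -1.40, with adjusted p 1.91e-08, 4.89e-12 and 0.00254). No gene of the 4 lists was called in Stat6-/-.

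Loci whose pattern over the 18 group means was most like each gene were found by Pearson's r of log2(FPKM + 1), a description in which all points share the scaling of the libraries. For Tnf they were Trim8 (0.92), Iffo2 (0.92) and Fam214b (0.91), and for Il10 Fgl2 (0.93), Fgr (0.93) and Jarid2 (0.92). The closest of all was Maf (0.99) to Il10ra, followed there by Swap70 (0.97) and Pou2f2 (0.96). For Il6ra they were Adrbk2 (0.96), Nhsl2 (0.95) and Psap (0.95), and for Il15 Nod1 (0.95), Bnip2 (0.93) and Uap1 (0.93). Tnfrsf1b was nearest to St6galnac6 (0.95), Pttg1ip (0.94) and Gclc (0.94), and Il12b to Gpr82 (0.98), Ptprm (0.96) and Fcrl5 (0.95). The group means of Il12b were near the floor, and highest in the Stat6-/- 24 h groups, at 0.593 (control) and 0.575 FPKM (IL-4). Likeness was lower for Tnfrsf1a, with Stat3 (0.84), B4galt3 (0.83) and Rnf145 (0.82), and for Osm, with Orai1 (0.84), R3hdm4 (0.83) and Ddrgk1 (0.82).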

How the data were processed

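Polyadenylated RNA of 53 BMDM cultures was sequenced in paired 100-base reads. Per the labels and the methods of the study, the authors mapped reads to mm10 with TopHat2 2.0.7 and deposited FPKM per locus from Cufflinks 2.0.2 at default parameters. The annotation they used is not given in the sources used here. FPKM is scaled within a library, so a change in abundant genes shifts all others, and no count test was used.

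The 23847 loci were joined by position and symbol. Loci at 1 FPKM or more in at least 1 library (11146) were transformed as log2(FPKM + 1) and fitted as 18 group means over all 53 libraries in limma 3.58.1 (R 4.3.3, intensity trend), which left 35 residual degrees of freedom. Every test was two-sided, with Benjamini-Hochberg adjustment within each contrast. Groups were read from the labels. The fit was tested on simulated data. The alternatives were a pseudocount of 0.1, 2 other filters, quantile normalization, only the groups compared, the replicate number as a block, and leaving out libraries.

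Same-numbered WT libraries of 1 time correlated in their deviations from the group means at over 0.1 in 13 of 15 pairs (0.03 to 0.56), and in every pair at 3 h and at 6 h. In Stat6-/- the values were 0.79 to 0.90. The labels do not say what a number marks, and 3 h and 6 h were taken as paired from these values. The study describes its WT data as individual animals.

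The 10 genes and the lists were chosen with earlier results of these data known. From each list the 3 genes with the largest called WT change are named, with the 3 loci most like each tested gene over the group means. Gene positions are those of the tables, counted from 1. All 10 genes are protein-coding in GENCODE vM21.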

Additional observations from a re-analysis of the deposited data

Results flagged for a closer look

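The responses of 5 genes differed between genotypes by the test of the difference itself, in 8 of the 36 differences tested (Stat6-/- minus WT, log2 scale, limma adjusted p under 0.05). For Tnf it was 2.33 at 1 h and 1.69 at 3 h. Il15 differed by 0.72 at 3 h, 0.75 at 6 h and 1.79 at 24 h. At 24 h it was 1.39 for Osm, 1.35 for Il6ra and 1.58 for Il10ra.

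Single libraries stood apart from the rest of their group, by Dixon's ratio, in 7 of 80 sets of 4, and chance flags about 1 in 20 groups. Tnf in WT 6 h control replicate 1 was at 17.6 FPKM beside 19.1 to 19.4 FPKM in the other libraries, and Tnfrsf1a in WT 3 h control replicate 1 at 98.9 beside 102.6 to 103 FPKM. Tnfrsf1b in WT 0 h control replicate 2 was at 105 FPKM beside 133 to 139 FPKM. In WT 3 h IL-4 replicate 4 Il6ra was at 25.9 beside 22.6 to 23.1 FPKM, and in WT 6 h IL-4 replicate 4 Il10 was at 9.90 beside 12.0 to 12.3 FPKM. WT 0 h control replicate 4 held 0.0256 and WT 1 h control replicate 2 held 0.0368 FPKM of Il6, in groups otherwise listed at 0, where any value above 0 gives the highest ratio by construction.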

How the results depend on the processing

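The number of the 9 genes called per comparison stayed within 1.5 times its value under the other pseudocount, both filters and quantile normalization. At 1 h in WT it went from 2 to 4 in the fit of only the groups compared and to 5 with the replicate block. The difference between genotypes at 3 h went from 2 to 1 in the fit of only the groups compared. At 6 h it went from 1 to 2 in that fit and to 3 with the block. It also moved without every Stat6-/- library numbered 1 and without those numbered 2, a pair of alternatives chosen after seeing the data. The same pair moved the count for Stat6-/- against WT controls, which was 2. Both leave 1 library per Stat6-/- group, so no count is given for them. Without number 1 Tnfrsf1b reversed in that comparison from 0.01 to -0.34. Leaving out 1 library gave 2 to 3 genes at 1 h, 3 to 4 at 3 h, 5 to 6 at 6 h and 5 to 7 at 24 h in WT. For 24 h against 0 h controls it gave 2 to 4. Counts also moved for the differences at 3 h and 24 h and for the genotype controls. There a Stat6-/- group can be left with 1 library. The causes were not tested.

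The block raised the calls over all loci from 1047 to 1908 at 1 h in WT, and for the differences from 374 to 841 at 1 h, 1248 to 2381 at 3 h, 1837 to 3362 at 6 h and 3008 to 5019 at 24 h. For 24 h against 0 h controls it went from 1922 to 4134, and to 1279 without WT 0 h control replicate 1. Calls over all loci also moved for the 24 h difference without Stat6-/- 24 h control replicate 1 or IL-4 replicate 2. The same held for Stat6-/- against WT controls without number 1. In these fits 1 library was left in a Stat6-/- group. At 1 h and 24 h, where 1 WT pair each correlated under 0.1 (the Stat6-/- pairs lay above it), the block called in addition Il10, Il10ra and Tnfrsf1b at 1 h, and Tnfrsf1b and Il12b at 24 h, in WT. It also called the 24 h differences of Il10 (0.86, adjusted p 0.000226) and Tnfrsf1b (-0.35, adjusted p 0.0103), and Tnfrsf1b and Il12b in controls at 24 h against 0 h. It ended no call of the 9 genes. The absolute depth is unknown, which limits what Il6 and Il12b can show.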

Other observations

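The ratio of Tnf to Il10 within a library, a readout chosen after the values were seen, gives both cytokines without the scaling of the library. In WT with IL-4 the log2 ratio differed from that of the controls by -2.98 at 1 h, -2.53 at 3 h and -1.26 at 6 h, and by 1.196 at 24 h. The IL-4 and control libraries did not overlap at any of these times, and no test is given, since the readout was chosen with both genes known to move. In Stat6-/- the differences were 0.05, 0.15, 0.05 and 0.15. Stat6-/- libraries numbered 2 at 24 h stood at ratios of 0.786 (control) and 0.898 (IL-4), beside 3.27 and 3.54 in those numbered 1.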
